A study of Mus musculus with 12 samples.

Results

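Serpins are serine protease inhibitors that share 1 fold. Most of them present a reactive loop to a protease, are cut and trap the enzyme, while a few have lost this activity and serve as hormone carriers or as a chaperone. Hepatocytes secrete many of the clade A serpins and several others into plasma, where they hold back elastase, thrombin, plasmin and complement proteases, and clade B serpins mostly stay inside cells. In macrophages, serpins of both kinds are known as genes that respond to inflammatory signals.

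The members were all genes of the count table whose symbol is Serpin followed by a clade letter from a to i and a digit. Of 69 such symbols, 5 named as pseudogenes (-ps) were left out, and no symbol was repeated, which left 64 of the 55335 genes listed. Clade A held 25 members, clade B 28, clades C, D, G and H 1 each, clade E 3, and clades F and I 2 each. All 64 had a gene model in GENCODE M21 (GRCm38). Of the clade A genes 24 lie on chromosome 12 and 1 on chromosome X, and the clade B genes lie on chromosome 1 (12 genes) and chromosome 13 (16 genes). The naming rule uses symbols and no measured values.

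RNA was sequenced from bone-marrow-derived macrophages (BMDMs) and from livers of C57BL/6N mice, with 3 libraries per genotype and tissue. Tshr f/f mice carried floxed alleles of the thyrotropin receptor gene and no Cre, and Tshr MKO mice carried the same floxed alleles with Lyz2-Cre, which acts in myeloid cells, so that hepatocytes of both groups keep the receptor gene. BMDM donors were 6 weeks old by the labels. All BMDM cultures had M-CSF at 10 ng/mL for 7 days and then TSH at 1 ng/mL over 24 h, and no library without TSH was analysed here. Mice for liver were started on a high-fat diet at 6 weeks of age, fed it for 9 weeks, fasted for 8 h and killed 5 min after insulin (1.5 U/kg), again in both groups. The methods give male littermates, 3 per group, for both tissues.

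Libraries held 28962878 to 40954211 counts. Tshr could not be used to check the labels, since its counts were near 0 in BMDMs and a deletion from exon 10 on need not lower a count over the whole gene. In a listing of 72 liver receptor values that accompanied the study, all 72 were found in a library labelled with the other group and 8 also in a library of the same group, so directions in liver rest on the labels, and the text speaks of livers labelled Tshr MKO. Directions in BMDMs rest on the labels too, and that listing does not cover them. BMDM f/f replicate 3 had a normalization factor of 0.738 (the other BMDM libraries 0.993 to 1.114), and liver f/f replicate 1 had by far the most serum amyloid RNA (Saa1 8151 CPM, against 101 to 1561 CPM in the other livers). All 7 macrophage markers were present in BMDMs, with a summed level of 14769 to 16275 CPM in f/f and 20019 to 29316 CPM in MKO. Lyz2, the gene whose promoter drives the Cre, was at 8866, 9836 and 8769 CPM in f/f and 16138, 14528 and 22306 CPM in MKO BMDMs. In livers it was at 27.7, 59.9 and 44.7 CPM in f/f and 1.56, 106 and 43.7 CPM in MKO. Without Lyz2 the other 6 markers summed to 5903 to 6439 CPM in f/f and 5491 to 7010 CPM in MKO BMDMs, with overlap. In BMDMs 5 of 6 hepatocyte markers were at 0. In livers the hepatocyte markers summed to 73455 to 98596 CPM.

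The tissues differed in how much of their RNA was serpin RNA. In BMDMs the 64 genes held 0.134, 0.215 and 0.276% of the counts in f/f libraries and 0.0695, 0.0726 and 0.0633% in MKO libraries, so the groups did not overlap. In livers the serpins held 3.48 to 4.28% of the counts, and Serpina3k with the 5 copies Serpina1a to Serpina1e made up 82.2 to 86.1% of that.

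A filter on low counts was passed by 21 members in BMDMs and by 32 in livers, and 16 passed in both. At 0 in all 12 libraries were 20 members, 16 of them in clade B, including Serpinb3a to Serpinb3d, Serpinb5 and Serpinb9c to Serpinb9h, with 2 of clade A, Serpine3 and Serpini2. A count of 0 allows up to 3 counts, which is 0.0733 to 0.1036 CPM (counts scaled to the size of the library) here and covers counting error alone. The other members that did not pass reached at most 13 counts in a BMDM library (Serpinf2) and 101 in a liver library (Serpina5). Fold changes are given on the log2 scale as MKO over f/f with their SE, and the CPM values are scaled by TMM within each tissue.

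Per kilobase of exon, the highest mean level over the 6 BMDM libraries was that of Serpinb2 (187 CPM per kb, 6.63 to 726 between libraries). The collagen chaperone Serpinh1 (83.8, 42.1 to 111) and Serpina3g (61.4, 9.28 to 181) were also among the highest, and the ranges of these 3 genes overlapped. In livers the order began with Serpina3k (5352 CPM per kb, 4630 to 6012) and Serpina1e (4454, 1856 to 6169), whose ranges overlapped, and went on with Serpina1c (3128), Serpina1d (2452), Serpina1a (1914) and Serpina1b (1859). Serpina3n followed at 494 CPM per kb. The C1 inhibitor gene Serping1 (387 CPM per kb) and the antiplasmin gene Serpinf2 (312) were next.

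**Figure D1:**
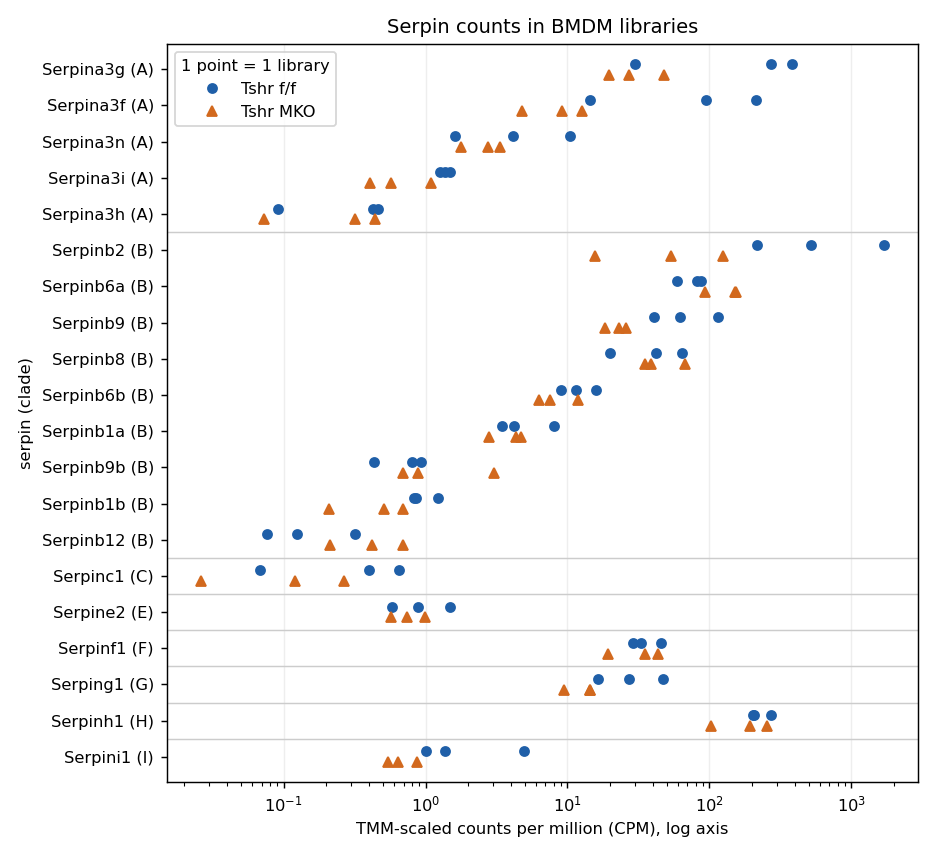
Level of 20 of the 21 serpins that passed the filter in BMDMs, as TMM-scaled CPM on a log axis, with 1 point per library (circles Tshr f/f, triangles Tshr MKO) and genes grouped by clade. Serpinb2, Serpina3f and Serpinb9 have all 3 MKO libraries below all 3 f/f libraries, and Serpinb6a has them above.

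Whether loss of the TSH receptor in myeloid cells alters serpin RNA in TSH-treated macrophages is the question of the BMDM comparison. Among the members with the most RNA in f/f BMDMs, the urokinase inhibitor Serpinb2 and the intracellular Serpina3f and Serpina3g had lower mean levels in MKO BMDMs by 7.19- to 12.6-fold. Serpinh1, also among them, was lower by 1.23-fold, and the groups overlapped for Serpinh1 and Serpina3g. Picking members by their f/f level favours those that are lower in MKO. Serpinh1 and Serpinb6a held the most serpin counts in MKO replicates 1 and 2, and Serpinb2 and Serpinh1 in MKO replicate 3. No member passed at an adjusted p under 0.05 (edgeR quasi-likelihood test, lowest adjusted p 0.218), nor did any of the 15372 genes tested (0%). At an unadjusted p under 0.05, 7 of the 21 members tested were lower and 1 was higher in MKO BMDMs. Over all genes tested 10.2% were lower and 7.73% higher at that limit (17.9% in all). Without f/f replicate 2, 2 members were higher (25.4% of all genes passed in either direction). Without MKO replicate 1 or MKO replicate 2, 0 were (8.15% and 9.52% of all genes). The median log2 fold change was -0.99 over the members tested and 0.01 over all genes tested. The 3 MKO libraries lay below the 3 f/f libraries in 8 members and above them in 1, where 14% and 14.8% of all genes tested did so. With DESeq2 in place of edgeR, 6 members had an adjusted p under 0.05, all lower in MKO, where 6.73% of the 16348 genes with an adjusted p passed (4.06% lower). Among them were Serpina3f, Serpinb2, Serpinb9, Serpina3g and Serping1, with adjusted p from 0.000297 to 0.0489.

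Serpinb2 (ENSMUSG00000062345, chromosome 1, 107511423-107535478, plus strand) encodes a largely intracellular inhibitor of urokinase. It was at 215, 521 and 1705 CPM in f/f and at 53.4, 15.6 and 124 CPM in MKO BMDMs, without overlap. The f/f replicate 3 library was the highest by far. MKO over f/f came to -3.66 on the log2 scale with an SE of 1.04 (12.6-fold, unadjusted p = 0.0115, adjusted p = 0.222), and it was -2.52 without f/f replicate 3 and -4.56 without MKO replicate 3. The model of Serpinb10 overlaps that of Serpinb2 on the same strand by 6476 bases, but Serpinb10 had at most 7 counts in a BMDM library. In livers Serpinb2 had 3 counts in 1 library and 0 in the others.

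The neuroserpin gene Serpini1, whose product inhibits tissue-type plasminogen activator, was low in BMDMs. It was at 1.00, 4.90 and 1.38 CPM in f/f and at 0.548, 0.64 and 0.867 CPM in MKO (log2 fold change -1.83, SE 0.66, unadjusted p = 0.0314, adjusted p = 0.257). The groups did not overlap, but f/f replicate 2 carried most of the difference, and without it the log2 fold change was -0.79 (unadjusted p = 0.104). Serpine2, which encodes a thrombin and plasminogen activator inhibitor of the cell surface, was at 0.577, 1.49 and 0.883 CPM in f/f and 0.574, 0.746 and 0.987 CPM in MKO, and the groups overlapped.

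Among the proteases these serpins inhibit, Plau (urokinase) was at 59.0 to 150 CPM in f/f and 118 to 140 CPM in MKO BMDMs, and the log2 fold change was 0.22 with an SE of 0.33. Plat (tissue-type activator) was at 15.1 to 27.7 CPM in f/f and 9.99 to 17.8 CPM in MKO, at -0.37 with an SE of 0.33. For the urokinase receptor gene Plaur it was -1.18 with an SE of 0.61 (unadjusted p = 0.0963). The groups overlapped in all 3 genes.

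The Serpina3 family is a set of mouse tandem copies related to the human antichymotrypsin gene. Serpina3f (ENSMUSG00000066363, chromosome 12, 104214544-104221129, plus strand) was at 95.0, 14.5 and 214 CPM in f/f and at 4.78, 9.12 and 12.7 CPM in MKO BMDMs. The groups did not overlap, though f/f replicate 2 stood close to the MKO libraries. Its log2 fold change was -3.60 with an SE of 0.95 (12.1-fold, unadjusted p = 0.00821, adjusted p = 0.218), and -2.64 without f/f replicate 3.

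Serpina3g (ENSMUSG00000041481, chromosome 12, 104236245-104241939, plus strand), which encodes an intracellular inhibitor of cathepsins, followed the same libraries. It was at 270, 30.1 and 381 CPM in f/f and 19.5, 27.1 and 47.9 CPM in MKO, and f/f replicate 2 lay within the MKO range. Its fold change on the log2 scale was -2.85 with an SE of 0.89 (unadjusted p = 0.0168, adjusted p = 0.228). Without MKO replicate 1 the unadjusted p was 0.0561, and without MKO replicate 2 it was 0.0553. In livers Serpina3f was at 2.16 to 6.72 CPM in f/f and 4.64 to 7.09 CPM in MKO (0.50, SE 0.41), and Serpina3g at 4.94 to 15.8 CPM in f/f and 10.7 to 11.9 CPM in MKO (0.10, SE 0.38). Reads of near-identical copies can be split or lost in counting, so values of single Serpina3 copies are uncertain.

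The other 3 members of clade A that passed in BMDMs had less RNA. Serpina3n, an antichymotrypsin relative that is secreted, was at 1.61, 10.4 and 4.11 CPM in f/f and 1.77, 2.75 and 3.32 CPM in MKO (log2 fold change -1.04, SE 0.66, unadjusted p = 0.165). Serpina3i was at 1.26 to 1.48 CPM in f/f and 0.409 to 1.09 CPM in MKO without overlap (-0.99, SE 0.43, unadjusted p = 0.0589). Serpina3h, annotated as a transcribed pseudogene, was at 0.0915 to 0.461 CPM in f/f and 0.0723 to 0.444 CPM in MKO. All 5 clade A fold changes were below 0, where 7570 of all 15372 genes tested were. The clade A median was -1.04 (-2.82 when only genes with a mean of at least 50 counts were kept).

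Clade B gave both directions. Serpinb9 (ENSMUSG00000045827, chromosome 13, 33003250-33017957, plus strand), the intracellular inhibitor of granzyme B, was at 62.2, 40.7 and 114 CPM in f/f and 18.5, 23.1 and 26.0 CPM in MKO BMDMs. The groups did not overlap. The log2 fold change was -1.68 with an SE of 0.38 (3.20-fold, unadjusted p = 0.00399, adjusted p = 0.218), and it was -1.19 without f/f replicate 3. The granzyme B gene Gzmb itself was at 7.87 to 15.5 CPM in f/f and 1.79 to 11.5 CPM in MKO, with overlap.

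Serpinb6a (ENSMUSG00000060147, chromosome 13, 33917918-34002794, minus strand), an intracellular serpin related to the human inhibitor of cathepsin G, was the only member higher in MKO at an unadjusted p under 0.05. It was at 87.9, 81.2 and 59.5 CPM in f/f and 152, 154 and 93.6 CPM in MKO, without overlap. The log2 fold change was 0.80 with an SE of 0.25 (1.75-fold, unadjusted p = 0.0169, adjusted p = 0.229), and the unadjusted p was 0.0584 without MKO replicate 1 and 0.0583 without MKO replicate 2. Serpinb6b, its neighbour in the family, was at 9.03 to 16.0 CPM in f/f and 6.31 to 11.8 CPM in MKO, with overlap (-0.50, SE 0.32).

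The remaining clade B members showed no such separation beyond Serpinb1b, at 0.824 to 1.23 CPM in f/f and 0.209 to 0.698 CPM in MKO (-1.02, SE 0.50, unadjusted p = 0.0855). Serpinb8 was at 42.2, 64.4 and 19.8 CPM in f/f and 39.0, 35.1 and 67.3 CPM in MKO (0.16, SE 0.46). Serpinb1a, an inhibitor of neutrophil elastase and cathepsin G, was at 3.46 to 8.10 CPM in f/f and 2.79 to 4.67 CPM in MKO (-0.41, SE 0.39). Over the 9 clade B members that passed, 5 fold changes were below 0 and 4 above, with a median of -0.41. That median was -0.18 without f/f replicate 3, -0.22 without MKO replicate 3 and -0.14 with library totals alone.

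Of the 11 members of clades C to I, 7 passed in BMDMs and all 7 fold changes were below 0, where 7570 of all 15372 genes tested were. The median of the 7 was -1.25 (-0.77 without f/f replicate 2 and -0.75 without f/f replicate 3). Serpinf1 (0.07) and Serpine2 (0.09) were above 0 without f/f replicate 2. Serping1 (ENSMUSG00000023224, chromosome 2, 84765387-84775444, minus strand) encodes the C1 inhibitor, which blocks the complement proteases C1r and C1s and plasma kallikrein. It was at 16.5 to 47.4 CPM in f/f and 14.4, 14.4 and 9.46 CPM in MKO, without overlap (log2 fold change -1.25, SE 0.40, 2.38-fold, unadjusted p = 0.0189, adjusted p = 0.232). Without f/f replicate 2 it was -0.77 (unadjusted p = 0.0435), and without MKO replicate 3 it was -1.07 (unadjusted p = 0.0639).

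The groups overlapped for the serpins that do not inhibit proteases. Serpinh1 was at 205, 271 and 202 CPM in f/f and 194, 253 and 103 CPM in MKO BMDMs (-0.30, SE 0.34, unadjusted p = 0.405). Serpinf1, which encodes pigment epithelium-derived factor, was at 33.2, 45.7 and 28.8 CPM in f/f and 35.3, 43.1 and 19.3 CPM in MKO (-0.14, SE 0.32). The antithrombin gene Serpinc1 was near the limit of detection at 0.0687 to 0.652 CPM in f/f and 0.0261 to 0.267 CPM in MKO.

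The BMDM libraries also held RNA of genes used as markers of other cells. All 7 fibroblast and stellate cell markers were present, with a summed level of 1238, 2787 and 1156 CPM in f/f and 1213, 1504 and 781 CPM in MKO. The highest value was in f/f replicate 2, which was also the highest library for Serping1, Serpini1, Serpinf1, Serpinh1, Serpine2 and Serpina3n. Each of the 8 neutrophil markers had counts in at least 1 BMDM library, and they summed to 7.53 to 49.1 CPM in f/f and 4.80 to 10.9 CPM in MKO. Most of the sum was S100a8, at 45.6 CPM in the highest library, f/f replicate 3, where S100a9, Ly6g and Elane were at 0. The markers did not move one way. S100a8 (-2.37, unadjusted p = 0.0252) and Camp (-3.23, unadjusted p = 0.000413) were lower in MKO, while Mpo, at most 0.965 CPM, was higher (2.01, unadjusted p = 0.0308). The 5 dendritic cell markers summed to 10.2 to 17.5 CPM in f/f and 6.86 to 8.32 CPM in MKO, without overlap. Ccr7 was at 6.02, 10.9 and 13.4 CPM in f/f and 2.87, 2.37 and 3.83 CPM in MKO (-1.74, SE 0.36, unadjusted p = 0.00236), and the other 4 markers summed to 4.15 to 4.37 CPM in f/f and 3.03 to 5.94 CPM in MKO, with overlap. Of 4 Kupffer cell markers tested, Marco (-2.17, unadjusted p = 0.00368) and Timd4 (-2.70, unadjusted p = 0.00813) were lower in MKO (50%, where 10.2% of all genes tested were lower and 17.9% passed in either direction). The other 2 had fold changes above 0. All 4 B cell markers had fold changes above 0, as had 7802 of the 15372 genes tested. The groups did not overlap in 2 of the 4 (14.8% of all genes tested), at a lowest adjusted p of 0.311. The part of cells of these types in the serpin values was not tested, and in bulk libraries fewer cells of a type cannot be told apart from less RNA per cell.

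**Figure D2:**
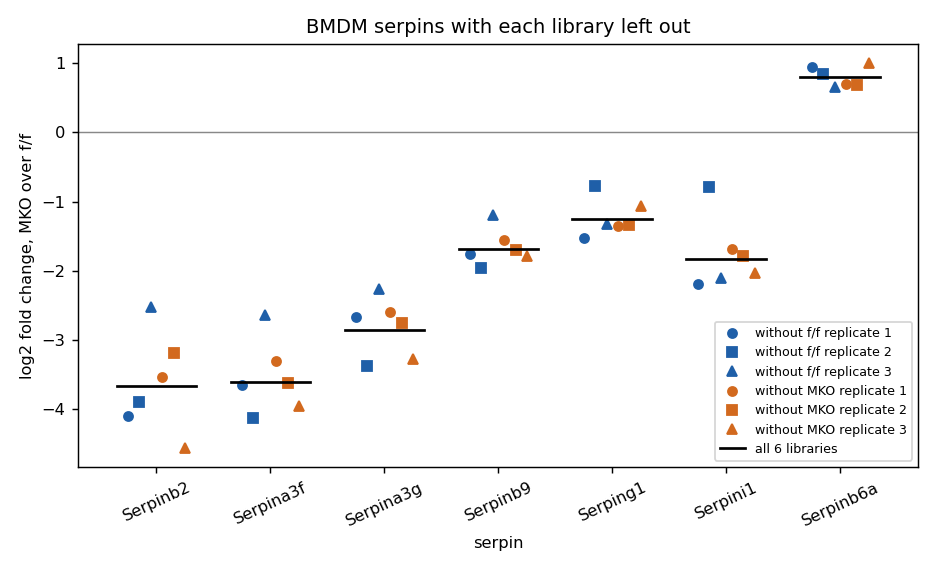
Log2 fold change (MKO over f/f) of 7 of the 8 BMDM members with an unadjusted p under 0.05, computed with each of the 6 libraries left out (points) and with all 6 (black lines). Every point keeps the sign of its line. Among the lower members, Serpini1 (-0.79) and Serping1 (-0.77) come nearest to 0, without f/f replicate 2. Serpinb6a is at 0.66 without f/f replicate 3.

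Over the 6 BMDM libraries Serpina3n was nearest by Spearman correlation to Serpine2 (0.886), Serpini1 (0.657) and Serpinb2 (0.543) of 20 other members. These are descriptions over 6 libraries that share the genotype difference. Promoters of Serpinb2, Serpina3f, Serpina3g and Serpinb9 are shown because these 4 had the lowest unadjusted p in BMDMs among the members with a promoter sequence. RefSeq promoters (GRCm38.p6) were at hand for 54 members. The 250 bases before the RefSeq start are printed 5′ to 3′ on the gene's strand. Capitals mark matches to TGACTCA (the AP-1 site), TGACGTCA (the cyclic AMP response element), TTCNNNGAA (the STAT site GAS), GAAANNGAA (a core of the interferon response element), TATAAA (the TATA box) and the NF-κB consensus, on either strand.
Serpinb2 (chr1:107511173-107511422, plus): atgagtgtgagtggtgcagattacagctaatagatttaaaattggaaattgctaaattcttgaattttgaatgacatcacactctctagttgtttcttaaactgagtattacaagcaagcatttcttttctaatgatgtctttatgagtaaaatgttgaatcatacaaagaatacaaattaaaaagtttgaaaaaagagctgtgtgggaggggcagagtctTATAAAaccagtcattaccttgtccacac
Serpina3f (chr12:104214294-104214543, plus): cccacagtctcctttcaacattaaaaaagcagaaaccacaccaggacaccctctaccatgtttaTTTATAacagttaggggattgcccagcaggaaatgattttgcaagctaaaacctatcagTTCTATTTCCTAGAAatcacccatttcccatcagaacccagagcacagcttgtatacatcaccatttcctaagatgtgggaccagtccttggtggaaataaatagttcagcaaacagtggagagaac
Serpina3g (chr12:104235897-104236146, plus): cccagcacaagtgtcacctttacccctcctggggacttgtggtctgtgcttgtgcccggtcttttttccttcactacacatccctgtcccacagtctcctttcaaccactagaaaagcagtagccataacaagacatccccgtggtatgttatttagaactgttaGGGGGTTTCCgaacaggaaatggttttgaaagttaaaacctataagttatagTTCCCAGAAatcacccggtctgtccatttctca
Serpinb9 (chr13:33004291-33004540, plus): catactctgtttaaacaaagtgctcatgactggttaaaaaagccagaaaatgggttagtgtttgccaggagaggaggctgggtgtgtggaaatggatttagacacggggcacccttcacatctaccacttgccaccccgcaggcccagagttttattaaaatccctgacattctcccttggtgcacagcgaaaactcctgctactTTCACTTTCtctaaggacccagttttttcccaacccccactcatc

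The Serpinb2 window held a TATA box 29 to 24 bases before the start and no other match. Serpina3f had a GAS match 121 to 113 bases and an interferon response core 127 to 119 bases before the start, which overlap, and a TATA box letter match 186 to 181 bases before it. Serpina3g had a GAS match 33 to 25 bases and an NF-κB match 85 to 76 bases before the start, and Serpinb9 had an interferon response core 45 to 37 bases before it. Over 27025 promoters of the same length, 1 per gene, 7.18% held GAS, 7.16% the interferon response core, 13% a TATA box, 7.01% the NF-κB consensus, 4.43% the AP-1 site and 1.62% the cyclic AMP element. Of the 54 members 7, 7, 13, 3, 6 and 0 held them, in that order. The RefSeq start of Serpinb9 lies inside the longer GENCODE model given above. The matches are letters and not shown to be bound.

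The genes these serpins act on or with were taken as lists. Of 29 target proteases 18 passed in BMDMs, with 4 lower and 1 higher in MKO at an unadjusted p under 0.05 (27.8%, against 17.9% of all genes tested) and a median log2 fold change of -0.10. Factor X (F10) was at 368 to 1448 CPM in f/f and 105 to 261 CPM in MKO (-2.24, SE 0.67), and the complement protease genes C1ra (-1.36, SE 0.27) and C1s1 (-0.94, SE 0.35) and the caspase gene Casp1 (-0.93, SE 0.26) were also lower. The cathepsin gene Ctsl was at 793, 934 and 695 CPM in f/f and 1218, 1365 and 1511 CPM in MKO (0.76, SE 0.21). Adjusted p for these 5 genes was 0.218 to 0.258.

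Of 12 cofactors and clearance receptors 11 passed, with 4 lower and 2 higher at an unadjusted p under 0.05 (54.5%, against 17.9% of all genes tested, lowest adjusted p 0.218). Sdc4 (-2.02), Lrp8 (-1.07) and Sdc1 (-0.71) were among the lower ones. The higher ones were Mrc1, at 126, 53.6 and 70.1 CPM in f/f and 315, 247 and 532 CPM in MKO (2.13, SE 0.43), and Thbd, the thrombomodulin gene, at 13.3, 25.6 and 9.13 CPM in f/f and 49.0, 51.0 and 38.9 CPM in MKO (1.53, SE 0.38). Lrp1, which takes up serpin and protease complexes, was at 1195 to 2349 CPM in f/f and 2336 to 3330 CPM in MKO (0.62, SE 0.31, unadjusted p = 0.0903).

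Of 22 acute-phase genes 9 passed in BMDMs, and 5 were lower at an unadjusted p under 0.05 (55.6%, where 10.2% of all genes tested were lower, lowest adjusted p 0.218), with a median of -1.72 over the 9. Saa3 was at 2671, 6908 and 15063 CPM in f/f and 747, 426 and 1116 CPM in MKO (-3.43, SE 0.72), C3 at 3059, 2217 and 5004 CPM in f/f and 976, 939 and 1581 CPM in MKO (-1.56, SE 0.39). Saa3 and Lcn2 were highest in f/f replicate 3, as Serpinb2 was.

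**Figure D3:**
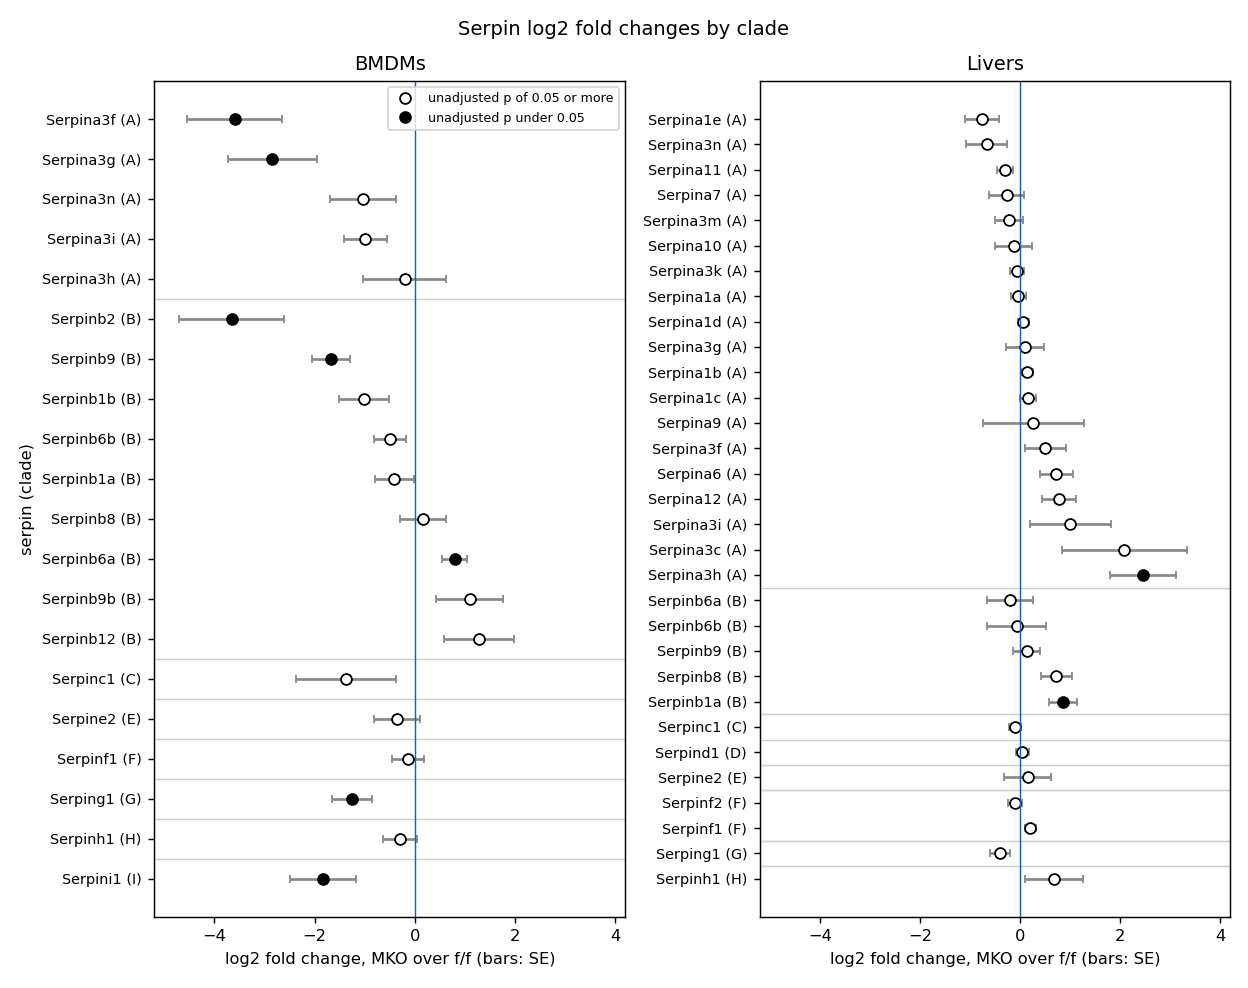
Log2 fold change (MKO over f/f) with its SE for serpins that passed the filter in BMDMs (left, 20 of 21 genes) and in livers (right, 31 of 32 genes), grouped by clade. Filled points, 7 in BMDMs and 2 in livers, have an unadjusted p under 0.05.

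In livers the question is whether a deletion in myeloid cells alters the RNA of the serpins the liver secretes. Of the main plasma serpins, Serpina1a to Serpina1d, Serpina3k, Serpinc1, Serpind1 and Serpinf2 had fold changes between -0.10 and 0.16 on the log2 scale. Serpina1e (-0.77), Serpina3n (-0.67) and Serping1 (-0.40), also among the highest in livers, had lower mean levels in livers labelled MKO, at an unadjusted p of 0.0591, 0.152 and 0.0894. No member and none of the 15062 genes tested had an adjusted p under 0.05 (0% of genes, edgeR), and with DESeq2 1 member did (Serpina3h, adjusted p = 0.0183), where 1.68% of the 13103 genes with an adjusted p passed. Of the 32 members that passed, 0 were lower and 2 higher in livers labelled MKO at an unadjusted p under 0.05. Over all genes tested 5.18% were lower and 5.27% higher at that limit (10.5% in all). Without f/f replicate 2, 2 members were lower and 6 higher at that limit (13.9% of all genes in either direction). Without f/f replicate 3, 0 were lower and 1 was higher (7.26% of all genes). Without MKO replicate 2 or MKO replicate 3, 1 was lower (8.83% and 6.93% of all genes). The median log2 fold change was 0.11 over the members tested (0.00 without MKO replicate 1) and -0.01 over all genes tested. The groups did not overlap in 5 members, lower in 1 and higher in 4, where 7.73% and 9.61% of all genes tested were apart in those directions.

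**Figure D4:**
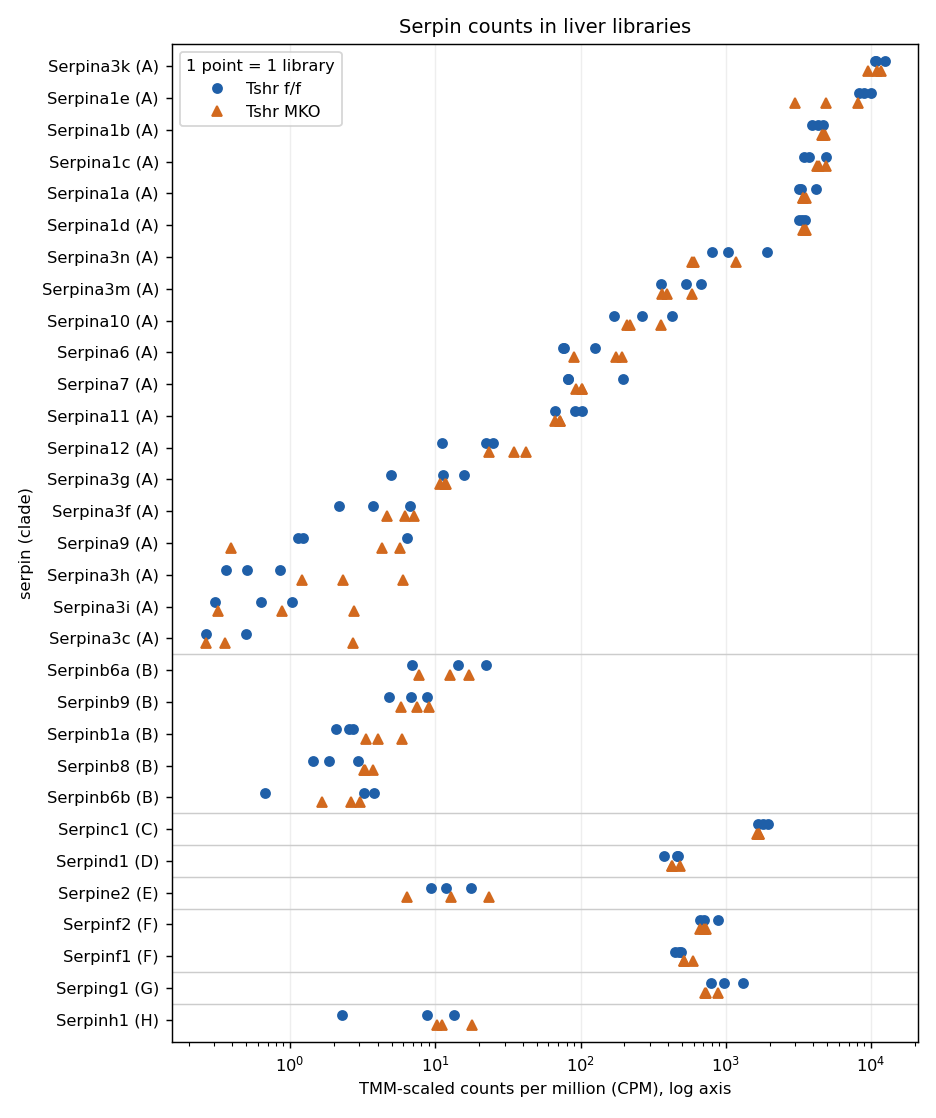
Level of 31 of the 32 serpins that passed the filter in livers, as TMM-scaled CPM on a log axis, with 1 point per library (circles Tshr f/f, triangles Tshr MKO) and genes grouped by clade. Serpina3c was at 0 in f/f replicate 1, and that point is not drawn. Most groups overlap, and Serpina1e has 2 MKO libraries well below the f/f libraries.

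The α1-antitrypsin copies Serpina1a to Serpina1e, which encode the main plasma inhibitor of neutrophil elastase, lie side by side on chromosome 12. Serpina1a was at 3197 to 4199 CPM in f/f and 3392 to 3585 CPM in MKO livers (-0.04, SE 0.15). Serpina1b (0.13, SE 0.12), Serpina1c (0.16, SE 0.16) and Serpina1d (0.06, SE 0.11) also overlapped between groups.

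Serpina1e (ENSMUSG00000072849, chromosome 12, 103946931-103958975, minus strand) was the copy that varied. It was at 9976, 8286 and 8970 CPM in f/f and at 3001, 8110 and 4866 CPM in livers labelled MKO. All 3 MKO livers lay below the f/f livers, but replicate 2 by little. For Serpina1e the log2 fold change was -0.77 with an SE of 0.34 (unadjusted p = 0.0591, adjusted p = 0.494), and it was -0.49 without MKO replicate 1 and -1.22 without MKO replicate 2 (unadjusted p = 0.00302, adjusted p = 0.47). Of the counts of the 5 copies, Serpina1e held 36.7, 36.1 and 39.4% in f/f livers and 15.9, 34.1 and 22.4% in MKO livers. The other 4 copies summed to 13794 to 17182 CPM in f/f and 15657 to 16856 CPM in MKO.

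**Figure D5:**
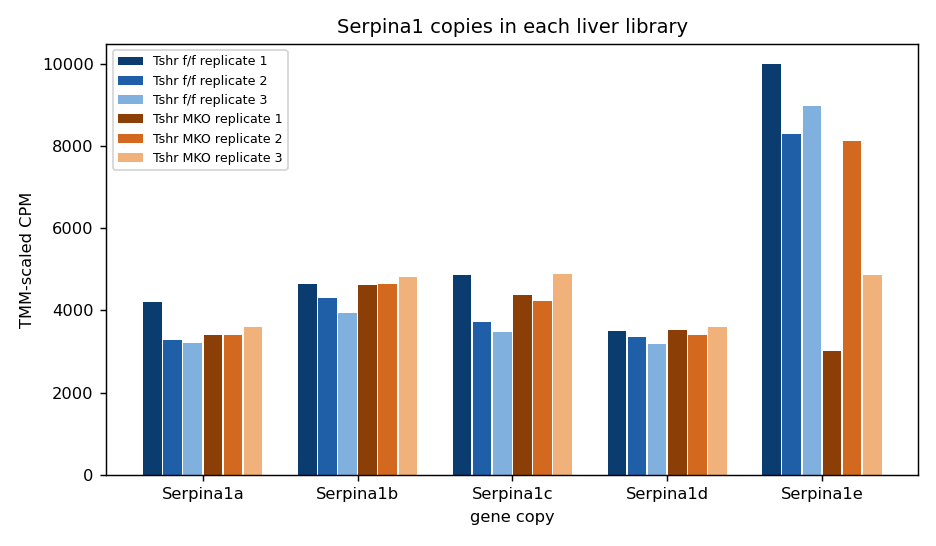
Level of the 5 Serpina1 copies in each of the 6 liver libraries, as TMM-scaled CPM on a linear axis from 0. Serpina1a to Serpina1d have bars of like height in all libraries, and Serpina1e is at 3001 CPM in MKO replicate 1 and 4866 CPM in MKO replicate 3 against 8110 to 9976 CPM in the other livers.

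Reads can fit more than 1 of the copies. Of all 100-base windows of the longest GENCODE M21 transcript of a copy, 47.4% in Serpina1a, 19.2% in Serpina1b, 58.5% in Serpina1c, 26.3% in Serpina1d and 14.8% in Serpina1e occurred letter for letter in a transcript of another copy. The models of Serpina1b and Serpina1d also overlap by 9999 bases, so the split between copies is uncertain. The bases before the RefSeq start are alike too. In Serpina1b and Serpina1e they lie inside the longer GENCODE model of the gene. A stretch of 140 bases before the RefSeq start of Serpina1a is printed with its match in each copy (GRCm38.p6, minus strand, 5′ to 3′). Capitals mark bases that differ from Serpina1a or are inserted.
Serpina1a (chr12:103863630-103863769): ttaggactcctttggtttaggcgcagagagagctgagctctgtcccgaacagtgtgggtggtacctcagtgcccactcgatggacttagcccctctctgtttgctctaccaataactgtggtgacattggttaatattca
Serpina1b (chr12:103738205-103738346): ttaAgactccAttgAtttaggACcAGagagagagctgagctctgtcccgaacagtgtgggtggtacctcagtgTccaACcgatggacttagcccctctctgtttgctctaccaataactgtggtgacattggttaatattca
Serpina1c (chr12:103904967-103905106): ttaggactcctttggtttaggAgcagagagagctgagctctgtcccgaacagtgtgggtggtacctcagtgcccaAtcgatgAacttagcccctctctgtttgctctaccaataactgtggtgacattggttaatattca
Serpina1d (chr12:103773639-103773778): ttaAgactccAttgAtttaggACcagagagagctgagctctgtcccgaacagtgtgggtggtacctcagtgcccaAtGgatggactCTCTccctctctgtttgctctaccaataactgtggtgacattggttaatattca
Serpina1e (chr12:103956965-103957104): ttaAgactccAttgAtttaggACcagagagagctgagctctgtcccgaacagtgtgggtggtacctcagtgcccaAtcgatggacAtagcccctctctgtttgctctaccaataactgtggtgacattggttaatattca

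Of the 140 bases of Serpina1a, 94.3% were the same in Serpina1b (with 1 gap), 97.9% in Serpina1c, 92.1% in Serpina1d and 95% in Serpina1e. The stretch ends 68 bases before the RefSeq start in Serpina1e and 6 to 17 bases before it in Serpina1b, Serpina1c and Serpina1d.

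Of the Serpina3 family in livers, Serpina3k was at 10692 to 12366 CPM in f/f and 9523 to 11731 CPM in MKO (-0.07, SE 0.14), and its model shares 7659 bases with that of Serpina3m (355 to 677 CPM in f/f and 364 to 586 CPM in MKO). Serpina3n was at 1914, 805 and 1033 CPM in f/f and 583, 601 and 1180 CPM in MKO. The log2 fold change of Serpina3n was -0.67 with an SE of 0.41 (unadjusted p = 0.152) and -0.24 without f/f replicate 1, and without MKO replicate 3 it was -1.08 (unadjusted p = 0.0327, adjusted p = 0.699). Serpinc1 and Serping1 (0.886 each) and Serpina10 (0.829) were nearest to Serpina3n by Spearman correlation over the 6 livers, out of 31 other members.

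Serpina3h was at 0.507, 0.854 and 0.365 CPM in f/f livers and 2.32, 6.02 and 1.20 CPM in livers labelled MKO (15, 31 and 11 counts against 83, 253 and 34). The groups did not overlap, with a log2 fold change of 2.46 and an SE of 0.66 (5.48-fold, unadjusted p = 0.00778, adjusted p = 0.334). It was 1.59 without MKO replicate 2, and with the first letter of the sample code as a covariate it was 2.10 (unadjusted p = 0.0522). Its annotation as a pseudogene in a row of near-identical copies makes this value uncertain. MKO replicate 1 alone had more than 18 counts of Serpina3b (93), Serpina3c (97) and Serpina5 (101). Of these Serpina3c passed the filter (2.08, SE 1.25, unadjusted p = 0.143).

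The genes of the hormone carriers Serpina6 and Serpina7 and of vaspin overlapped between groups. Serpina6, the corticosteroid-binding globulin gene, was at 76.9, 125 and 75.8 CPM in f/f and 193, 89.4 and 175 CPM in MKO (0.72, SE 0.33, unadjusted p = 0.0696). Serpina7, the thyroxine-binding globulin gene, was at 82.0 to 195 CPM in f/f and 92.8 to 103 CPM in MKO (-0.27, SE 0.35). Serpina12, the vaspin gene, was at 11.1, 24.9 and 22.2 CPM in f/f and 23.3, 42.4 and 34.6 CPM in MKO (0.78, SE 0.34, unadjusted p = 0.058). Of 6 other plasma carrier genes, all 6 passed and Ttr was higher at an unadjusted p under 0.05 (0.37, SE 0.13, adjusted p = 0.412), with a median of 0.04. That was 16.7% of the list, where 5.27% of all genes tested were higher and 10.5% passed in either direction.

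Among the plasma protease inhibitors outside clade A, the antithrombin gene Serpinc1 was at 1660 to 1948 CPM in f/f and 1644 to 1697 CPM in MKO (-0.10, SE 0.12). Serpind1, for heparin cofactor II, was at 375 to 465 CPM in f/f and 423 to 487 CPM in MKO (0.04, SE 0.13), and Serpinf2, for the plasmin inhibitor antiplasmin, at 665 to 881 CPM in f/f and 669 to 725 CPM in MKO (-0.10, SE 0.14). Serping1 was at 1318, 785 and 973 CPM in f/f and 732, 718 and 879 CPM in MKO (-0.40, SE 0.20, unadjusted p = 0.0894), with a fold change of -0.19 without f/f replicate 1 and -0.56 without f/f replicate 2 (unadjusted p = 0.0142, adjusted p = 0.23). Serpinf1 was at 449 to 492 CPM in f/f and 517 to 598 CPM in MKO, without overlap (0.20, SE 0.11, unadjusted p = 0.112).

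Serpine2 was at 9.40 to 17.5 CPM in f/f and 6.34 to 23.5 CPM in MKO (0.15, SE 0.47). Serpinh1 was at 2.27, 13.5 and 8.75 CPM in f/f and 10.3, 17.8 and 11.2 CPM in MKO (0.68, SE 0.58), and 0.23 without f/f replicate 1. The 7 fibroblast and stellate cell markers were also lowest in that library, at 32.1 CPM in sum against 95.8 to 252 CPM in the other livers, and their part in the Serpinh1 value was not tested.

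Of clade B, 5 members passed in livers. Serpinb1a (ENSMUSG00000044734, chromosome 13, 32842092-32851185, minus strand) was at 2.54, 2.73 and 2.06 CPM in f/f and 5.92, 3.35 and 4.03 CPM in livers labelled MKO, without overlap. Its log2 fold change was 0.86 with an SE of 0.28 (1.82-fold, unadjusted p = 0.0174, adjusted p = 0.384), and 0.59 without MKO replicate 1 (unadjusted p = 0.0746). Neutrophil markers, at 8.89 to 108 CPM in sum in f/f and 10.4 to 18.5 CPM in MKO livers, were highest in f/f replicate 1, where Serpinb1a was at 2.54 CPM. Serpinb8 was at 1.43 to 2.92 CPM in f/f and 3.21 to 3.74 CPM in MKO, without overlap (0.72, SE 0.31, unadjusted p = 0.0535). Serpinb9 (0.13, SE 0.27) and Serpinb6a (-0.21, SE 0.46), which had an unadjusted p under 0.05 in BMDMs, overlapped between groups in livers.

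Acute-phase genes were a list of 22 in livers too. All 22 passed, with a median of -0.87, and 21 of the fold changes were below 0, as were 7662 of the 15062 genes tested. At an unadjusted p under 0.05, 8 genes were lower in livers labelled MKO. That was 36.4%, where 5.18% of all genes tested were lower and 10.5% passed in either direction. Hp was at 19507, 5675 and 8726 CPM in f/f and 4417, 4855 and 5802 CPM in MKO. Lcn2 was at 1285, 91.5 and 225 CPM in f/f and 43.3, 28.1 and 137 CPM in MKO (-2.94, SE 1.10, unadjusted p = 0.0337). The adjusted p of the 8 genes was 0.375 to 0.473, and the groups overlapped in all 22. Hp and Saa1 were highest in f/f replicate 1, and so were Serpina3n, Serping1, Serpina7 and Serpina10. The same library was also the highest for Serpina1a, Serpina1e, Serpina3k, Serpina3m, Serpina11, Serpinc1 and Serpinf2. Its normalization factor was 0.891, against 0.976 to 1.047 in the other livers. A link between these serpins and the acute-phase genes was not tested.

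Of the 29 target proteases 28 passed in livers, with Furin lower (-0.43, SE 0.10) and Hgfac higher (0.31, SE 0.11) at an unadjusted p under 0.05 and a median of -0.15. These 2 were 7.14% of the proteases tested, below the 10.5% of all genes. The prothrombin gene F2 was at 1571 to 1934 CPM in f/f and 1513 to 1637 CPM in MKO (-0.10, SE 0.13) and the plasminogen gene Plg at 2613 to 3474 CPM in f/f and 2250 to 2595 CPM in MKO without overlap (-0.25, SE 0.16, unadjusted p = 0.149). Of the 12 cofactors and receptors 11 passed, with 2 lower at that limit, among them Pnpla2 (-0.40, SE 0.10). That was 18.2%, where 5.18% of all genes tested were lower and 10.5% passed in either direction.

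The genotype difference was then compared between tissues in a fit of all 12 libraries, for the 16 members that passed in both. No member had an adjusted p under 0.05 for the difference of differences, which 0.0058% of the 17246 genes tested had. At an unadjusted p under 0.05 there were 6 members (14.5% of all genes tested), all with a higher log2 fold change in liver than in BMDMs under the labels. With the liver sign turned, 4 of the 6 would still be higher in liver, and Serpinb1a (-0.86 against -0.41) and Serpina3h (-2.46 against -0.20) would be lower. The difference, liver minus BMDM, was 4.10 for Serpina3f (SE 1.10, adjusted p = 0.187), 1.81 for Serpinb9 (SE 0.51, adjusted p = 0.201) and 2.94 for Serpina3g (SE 1.03, adjusted p = 0.252). It was 1.28 for Serpinb1a (SE 0.51) and 2.68 for Serpina3h (SE 1.13). These 2 depended on the libraries and the fit. Serpinb1a kept an unadjusted p under 0.05 in 9 of 14 alternative fits, with 0.81 at the least (without BMDM f/f replicate 3) and p up to 0.0936. Serpina3h kept it in 6 of 14, with 1.81 at the least (without liver MKO replicate 2) and p up to 0.127. Without BMDM f/f replicate 2, Serpina3f (4.62, adjusted p = 0.0211), Serpina3g (3.46, adjusted p = 0.0296) and Serpinb9 (2.10, adjusted p = 0.046) passed, as did 1.93% of all genes tested. Without BMDM f/f replicate 3 the differences were 3.12, 2.33 and 1.31 in that order, and over the 14 alternative fits their adjusted p reached 0.411, 0.465 and 0.411. Without liver f/f replicate 1, 1 member had a lower log2 fold change in liver at an unadjusted p under 0.05. For Serpina3n the difference was 0.37 (SE 0.82, unadjusted p = 0.665) and for Serpinf1 0.35 (SE 0.37, unadjusted p = 0.368).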

How the data were processed

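RNA of 6 BMDM and 6 liver samples was measured by strand-specific sequencing. The deposited table gives the authors' count of reads per gene, not normalized; their processing notes name STAR, StringTie, mm10 and FastQC v0.11.2, and the settings and the counting of multimapped reads are not given in the sources used here. Every count column was used (0 unmapped).

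The members and gene lists were chosen with earlier results of these data known. Genes were tested per tissue with edgeR 4.0.16 in R 4.3.3 (filterByExpr, TMM, robust quasi-likelihood fit), MKO against f/f, with Benjamini–Hochberg adjustment over all genes tested; the SE is the log2 fold change over the square root of F. The tissue difference was the interaction over 12 libraries. Alternatives were DESeq2 1.42.0, other scalings and filters, a replicate block, the first letter of the sample code in the labels, and leaving out each library. On simulated counts with 200 changed genes, 71% of 4-fold changes were recovered in BMDMs (15019 genes, 11% of 2-fold changes) and 86% in livers (14775 genes, 45% of 2-fold changes), with 4.65% and 6.43% of calls on unchanged genes. The changed genes had a mean of at least 50 counts, which 14 of the 21 members reach in BMDMs and 30 of the 32 in livers. No simulated library stood apart from its group, so these shares need not hold for the real libraries.

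Named members had an unadjusted p under 0.05, were among the 10 highest per kilobase in a tissue, or belonged to clades C to I; from the other lists up to 4 genes per list and tissue were named by p. Plau, Plat, Plaur, C1s1, Sdc4, Lrp8, Gzmb, Lrp1, F2, Plg, Saa1, Hp and Lcn2 in livers, Ccr7, the neutrophil markers, the other Serpina3, Serpina6, Serpina7, Serpina12 and clade B members were named after their values were seen. The coefficient of biological variation was 0.337 in BMDMs and 0.273 in livers. Total counts of 28962878 to 40954211 set the counting precision, and PCR copies were not marked. Promoters came from RefSeq (GRCm38.p6) and gene models from GENCODE M21. Tables and figures used python 3.11.15, pandas, numpy and matplotlib. A member and a receptor gene are not reported here, though counts over the lists include them.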

Additional observations from a re-analysis of the deposited data

How the results depend on the processing

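Whether replicate numbers pair the samples is not known. Deviations of same-numbered libraries from their group means correlated at 0.096, 0.013 and 0.102 in BMDMs and at -0.056, 0.217 and -0.021 in livers. Libraries with different numbers correlated at -0.191 to 0.153 in BMDMs and -0.291 to 0.281 in livers. With deviations taken from means of 3 libraries, these values cannot exclude pairing. With the replicate block, 6 members were lower and 1 higher in BMDMs and 0 lower and 3 higher in livers at an unadjusted p under 0.05, and 5 differed between tissues; over all genes these shares were 8.7% lower and 7.14% higher in BMDMs, 4.15% lower and 4% higher in livers, and 13.1% between tissues. Members with an adjusted p under 0.05 numbered 0 under each alternative but DESeq2, with 6 in BMDMs and 1 in livers; in the tissue comparison, leaving out a library gave 0 to 3. In BMDMs the higher members at an unadjusted p under 0.05 were 0 to 2 with each library left out (8.15 to 25.4% of all genes in either direction). The clade A median was -2.82 with a mean of at least 50 counts, which leaves fewer genes. In livers the higher members were 4 with no filter, 1 with the code letter, 6 with DESeq2 and 1 to 6 with each library left out. Over all genes, 8.03%, 9.63%, 7.08% and 6.93 to 13.9% passed that limit in either direction, in that order. The lower members in livers were 2 with DESeq2, 1 with all 12 libraries (7.1% of all genes in either direction) and 0 to 2 with each library left out, and between tissues 0 to 1. The median of clades C to I in BMDMs was -1.34 to -0.75 with each library left out. The cause was not tested.

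Signs that turned belonged to fold changes near 0. With library totals alone, BMDM Serpina3h was 0.06 and Serpinf1 0.01; with the code letter, liver Serpina1a was 0.01 and Serpina3m 0.03. With each library left out, BMDM ranges were -0.71 to 0.25 (Serpina3h), -0.64 to 0.05 (Serpinb1a), -0.19 to 0.60 (Serpinb8), -0.61 to 0.09 (Serpine2) and -0.39 to 0.13 (Serpinf1). In livers they were -0.12 to 0.09 (Serpina1a), -0.25 to 0.48 (Serpina3g), -0.14 to 0.01 (Serpina3k), -0.46 to 0.01 (Serpina3m), -0.07 to 0.35 (Serpinb9), -0.07 to 0.08 (Serpind1), -0.44 to 0.50 (Serpine2) and -0.18 to 0.03 (Serpinf2). Leaving out 1 of 3 libraries assumes that the remaining ones vary like the other groups. Library totals alone moved the median of all BMDM genes to 0.175 on the log2 scale.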

Other observations

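The serpin genes named as pseudogenes were left out of the members. Serpina4-ps1 had 376, 1314 and 3328 counts in f/f livers and 2585, 1304 and 954 in livers labelled MKO. Serpina3l-ps had 444 counts in f/f replicate 2 and 54 in MKO replicate 1, with 0 to 2 in the other livers. Serpina3d-ps was found in BMDMs only, with at most 12 counts, in f/f replicates 1 and 3 and MKO replicate 3.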
